A study of Arabidopsis thaliana with 15 samples.

Results

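Cytochromes P450, glutathione transferases and UDP-glycosyltransferases were followed in Arabidopsis thaliana leaves that were darkened on the plant. The genes were taken by symbol, from probe sets paired with exactly 1 gene: symbols that begin with CYP and at least 2 digits, with GSTF, GSTU, GSTZ, GSTL or GSTT, or with UGT and a digit. This gave 90 of the 16175 genes tested. UDP-glycosyltransferases made up 48 of them, glutathione transferases 14 and P450 genes 26. The CYP prefix also took in CYP59 (AT1G53720) and CYP71 (AT3G44600), which go against the family label. They encode multidomain cyclophilins, proteins of the peptidyl-prolyl isomerase family, and not P450 enzymes. These 2 members were counted apart from the P450 genes but stayed in every count of all 90 members. The RefSeq table holds 345 genes whose symbol meets the same rule, so most genes of these families were not analysed here. The P450 genes were mainly of 1 subfamily, with 21 CYP71B genes beside CYP718, CYP78A9, CYP79A2, CYP79C2 and CYP84A4. Of the glutathione transferases, 11 were of the tau class (GSTU), GSTF3 and GSTF4 of the phi class and GSTL3 of the lambda class. No GSTZ or GSTT gene was among the genes tested.

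Transcripts were measured on 15 Affymetrix arrays in 5 groups of 3 biological replicates. All plants were of ecotype Col-0, raised at 22 °C in days of 8 h light followed by 16 h dark. Light leaves were harvested at day 0, before any darkening. The other leaves came after 3 or 6 days of darkening, either from whole plants kept in dark boxes (DP, for darkened plant) or as single leaves under foil-coated plastic mittens while the rosette kept its day and night cycle (IDL, for individually darkened leaf). Each replicate was a pool of 2 leaves, so each array averages over its leaves. Light leaves were sampled at day 0 only, and in every comparison with light the darkness and 3 or 6 more days of leaf age cannot be told apart. The leaves were whole organs, and fewer cells of a type and less RNA per cell cannot be told apart either.

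Levels are log2 of the deposited intensity, and differences are on the same log2 scale with the standard error of the fit, with n = 3 arrays in each group. A gene was said to rise or fall where limma gave an adjusted p under 0.05, two-sided, with Benjamini-Hochberg adjustment over all 16175 genes. Arrays of 1 group correlated at 0.984 to 0.991. The lower quartile of all genes lay between 3.44 and 3.51 in the 5 groups, and 15 of the 90 members (16.7%) lay below it in every group. A change from or to a level below that quartile is a lower bound on its size and is given without a fold. Levels of different probe sets depend on their probes and were not ordered. Of the leaf markers measured, the mesophyll genes RCA and LHCB4.2 were bright in light (10.98 and 9.87) and lower in every dark group. Of the guard cell markers, AT1G22690 read 7.01 in light, 5.50 and 4.96 in DP at days 3 and 6 and 4.55 and 3.84 in IDL at days 3 and 6, and was lower in IDL than in DP on both days. FMA lay between 5.38 and 5.77, and its rise of 0.40 in IDL at day 6 passed. The root marker BGLU23 lay between 3.50 and 3.72 and passed in no comparison. Whether cell makeup had a part in the results was not tested.

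P450 enzymes use oxygen and electrons from a reductase to oxidise small molecules, and plants use them in the synthesis of hormones, glucosinolates, phenylpropanoids and phytoalexins. Glutathione transferases join glutathione to reactive compounds or bind and reduce them. UDP-glycosyltransferases move a sugar from a UDP-sugar to a hormone, flavonoid, sinapate or other acceptor, which changes its solubility and activity and often prepares it for storage in the vacuole. In leaves the 3 families are best known for specialised metabolism, hormone inactivation and detoxification.

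Against light, members changed about as often as genes in general, in both directions. In DP at day 3 15 rose and 19 fell of 90 members (17.2% of all genes rose and 18.0% fell, 35.2% in either direction). In DP at day 6 15 rose and 21 fell (20.3% of all genes rose and 19.6% fell, 39.9% in either direction). In IDL at day 3 18 rose and 17 fell (20.8% of all genes rose and 18.8% fell, 39.6% in either direction). In IDL at day 6 21 rose and 20 fell (20.6% of all genes rose and 19.1% fell, 39.7% in either direction). As shares of the 90, the called members were 37.8%, 40.0%, 38.9% and 45.6%, so these counts stood near the background. The median member differed from light by 0.06, 0.05, 0.07 and -0.00, and the median of all genes by 0.04, 0.05, 0.07 and 0.03. The 4 comparisons share the light arrays, so their counts are not independent of each other. Calls came mainly from members with a high mean over all 15 arrays. In DP at day 3, 29 of the 45 members above the median level of all genes (4.01) were called and 5 of the 45 below it. In IDL at day 6 these numbers were 37 and 4. That mean takes in the dark arrays, so a member's own rise or fall helped to place it above or below the median. The same split was not made for all genes, so whether it is particular to the members was not tested.

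**Figure D1:**
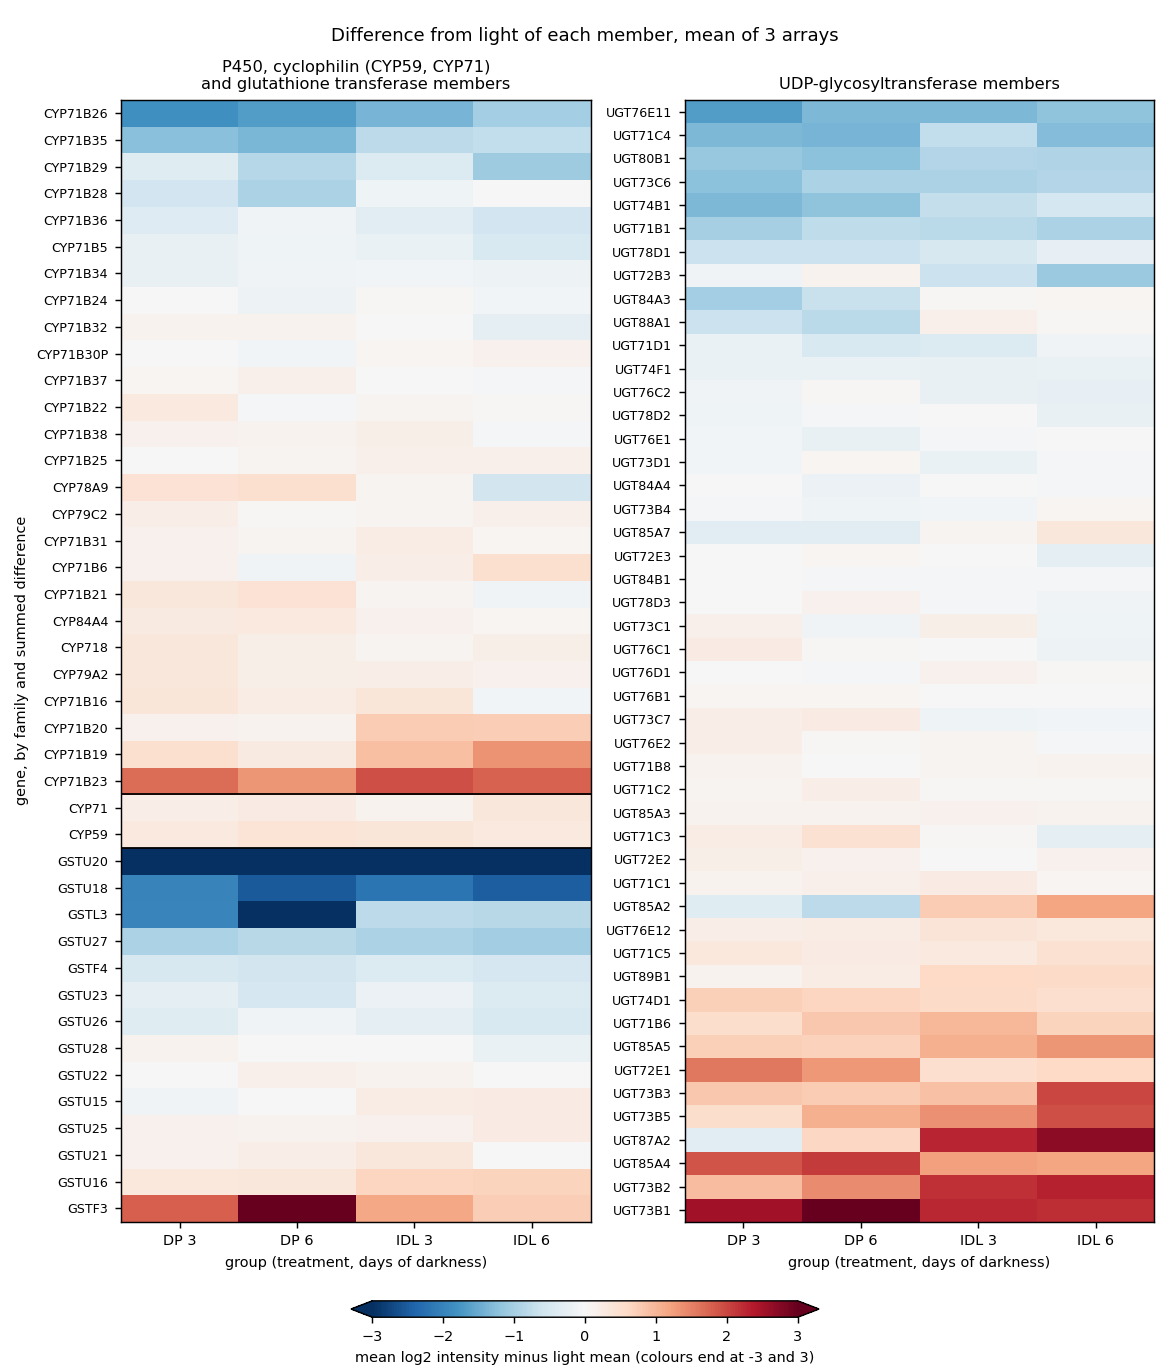
Mean log2 intensity of each of the 90 members minus its light mean, in DP and IDL at days 3 and 6 (columns; red higher, blue lower, n = 3 arrays per group, colours end at -3 and 3). GSTU20 is darkest blue in all 4 columns, and UGT73B1 is red in all 4, whereas UGT87A2 is deep red in the IDL columns and pale in the DP columns.

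Among glutathione transferases falls outnumbered rises in all 4 comparisons with light on the deposited scale. Of the 14 genes, 1 rose and 6 fell in DP at day 3, 2 rose and 6 fell in DP at day 6, 2 rose and 6 fell in IDL at day 3 and 2 rose and 7 fell in IDL at day 6. Of the 48 glycosyltransferases, 9 rose and 9 fell in DP at day 3, 10 rose and 11 fell in DP at day 6, 12 rose and 8 fell in IDL at day 3 and 13 rose and 7 fell in IDL at day 6. Of the 26 P450 genes, 5 rose and 4 fell, 2 rose and 4 fell, 3 rose and 3 fell and 4 rose and 6 fell in the same order. The splits of all 3 families moved with the scaling, and counts under other scalings stand without a share of all genes. Centring on the array median gave 3 higher and 4 lower glutathione transferases in IDL at day 3, so falls still outnumbered rises there. With arrays centred on reference genes, the glutathione transferases split into 2 higher and 4 lower in DP at day 3, 8 higher and 3 lower in DP at day 6, 3 higher and 4 lower in IDL at day 3 and 4 higher and 4 lower in IDL at day 6. The glycosyltransferases then split into 16 higher and 9 lower in DP at day 3, 32 higher and 5 lower in DP at day 6, 14 higher and 6 lower in IDL at day 3 and 15 higher and 6 lower in IDL at day 6, and the P450 genes into 11 higher and 2 lower in DP at day 3, 18 higher and 4 lower in DP at day 6, 4 higher and 2 lower in IDL at day 3 and 5 higher and 3 lower in IDL at day 6. The cyclophilin CYP59 gave 0.29 in DP at day 3 and rose by 0.42 ± 0.11 in DP at day 6, 0.35 ± 0.11 in IDL at day 3 and 0.29 ± 0.11 in IDL at day 6, the last call lost in 14 alternatives (adjusted p up to 0.254) and the one before it lost in 2 alternatives (adjusted p up to 0.111). CYP71 rose by 0.34 ± 0.12 in IDL at day 6, a call lost in 4 alternatives (adjusted p up to 0.091), and gave 0.21, 0.24 and 0.12 elsewhere. No test compared the families with each other or with all genes.

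The split between rises and falls depends on the scaling. Shares of all genes called are given on the deposited scale only, so counts under other scalings stand without a background. Only 2 of the reference genes listed were measured, TIP41L and SAND, and both were themselves lower in DP at day 6. Centring on their mean moved the median of all genes to 0.27 in DP at day 3, 0.53 in DP at day 6, 0.22 in IDL at day 3 and 0.22 in IDL at day 6. Relative to the reference genes, members split into 31 higher and 15 lower in DP at day 3, 60 higher and 12 lower in DP at day 6, 22 higher and 12 lower in IDL at day 3 and 26 higher and 13 lower in IDL at day 6. Neither quantile normalization nor centring on the array median moved the share of rises among all called members by over 10 percentage points in these 4 comparisons. Array median centring still turned the majority in DP, to 20 higher and 18 lower at day 3 and 21 higher and 20 lower at day 6. In IDL it gave 21 higher and 15 lower at day 3 and 22 higher and 20 lower at day 6. Some family splits moved further. The P450 genes in DP at day 6 went from 2 higher and 4 lower to 5 higher and 4 lower.

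**Figure D2:**
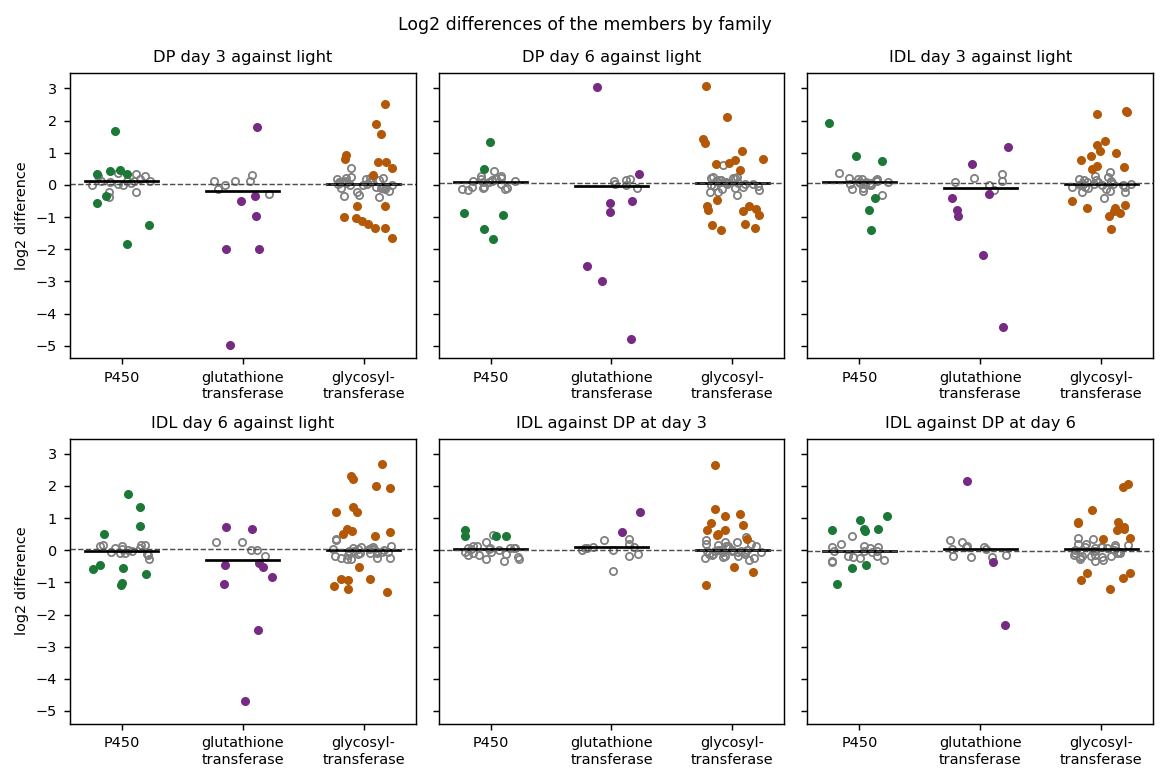
Log2 differences (vertical axes) of P450, glutathione transferase and glycosyltransferase members in 6 comparisons, with 1 point per gene, filled where the adjusted p was under 0.05, a bar at the family median and a dashed line at the median of all genes. P450 and glycosyltransferase medians lie near the dashed line, glutathione transferase medians lie between -0.30 and 0.09, and the most distant point is GSTU20, at -4.99 in DP at day 3.

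Among glutathione transferases the tau-class gene GSTU20 (AT1G78370) had the largest fall. GSTU20 is known to interact with the jasmonate-conjugating enzyme FIN219/JAR1 and has been linked to aliphatic glucosinolates. Its log2 intensities were 8.75, 8.95 and 8.83 in light, 3.74, 3.80 and 4.02 in DP leaves at day 3, 3.70, 4.28 and 4.15 in DP leaves at day 6, 4.64, 4.07 and 4.58 in IDL at day 3 and 4.12, 4.31 and 4.01 in IDL at day 6. All 12 dark arrays lay between 3.70 and 4.64, far below the light arrays. DP arrays at day 3 lay below all IDL arrays of that day, and the other pairs of dark groups overlapped. GSTU20 fell by 4.99 ± 0.16 in DP at day 3 (limma, adjusted p = 5.32e-16, 31.8-fold) and by 4.70 ± 0.16 in IDL at day 6 (26-fold). IDL exceeded DP by 0.58 ± 0.16 at day 3, a call lost in 4 alternatives (adjusted p up to 0.085), and by 0.10 at day 6, which did not pass. GSTU18 (AT1G10360), of the same class, read 6.59, 6.37 and 6.19 in light, 4.38, 4.35 and 4.44 in DP leaves at day 3, 3.73, 3.88 and 3.99 in DP leaves at day 6, 4.06, 4.44 and 4.11 in IDL at day 3 and 3.75, 3.99 and 3.97 in IDL at day 6. It fell in all 4 groups, by 1.99 in DP at day 3, 2.52 in DP at day 6, 2.18 in IDL at day 3 and 2.48 in IDL at day 6, and no dark array reached the light arrays. GSTU27 also fell in all 4, by 0.95 in DP at day 3, 0.84 in DP at day 6, 0.95 in IDL at day 3 and 1.05 in IDL at day 6, though centring on the reference genes left its DP day 6 value at -0.37 (adjusted p = 0.0588).

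GSTL3 (AT5G02790), a lambda-class enzyme of the kind that reduces glutathionylated flavonols, fell everywhere but much further when the whole plant was dark. It read 10.51, 10.58 and 10.59 in light, 8.67, 8.77 and 8.27 in DP leaves at day 3, 7.87, 7.44 and 7.37 in DP leaves at day 6, 9.89, 9.68 and 9.72 in IDL at day 3 and 9.69, 9.67 and 9.80 in IDL at day 6. The light arrays were highest, the IDL arrays came next, and the DP arrays were lowest, with no overlap between these levels nor between DP at day 3 and day 6. The falls were 1.99 in DP at day 3, 3.00 in DP at day 6, 0.79 in IDL at day 3 and 0.84 in IDL at day 6. At day 6 this was a fall of 7.99-fold in DP and of 1.79-fold in IDL. IDL exceeded DP by 1.2 ± 0.14 at day 3 and by 2.16 ± 0.14 at day 6 (adjusted p = 1.01e-10).

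The phi-class gene GSTF3 (AT2G02930) went the other way. It read 3.52, 3.13 and 3.21 in light, 4.93, 5.82 and 4.51 in DP leaves at day 3, 6.26, 6.67 and 6.07 in DP leaves at day 6, 4.51, 4.49 and 4.37 in IDL at day 3 and 4.16, 4.08 and 3.81 in IDL at day 6. Its light mean of 3.29 lay below the lower quartile of all genes, so the rises of 1.80 in DP at day 3, 3.05 in DP at day 6, 1.17 in IDL at day 3 and 0.73 in IDL at day 6 are lower bounds. The DP arrays at day 6 were highest, and no dark array overlapped light. DP arrays at day 3 were spread over more than 1 unit, with replicate 2 on top. GSTF2 is a near-identical copy of GSTF3, and probes of one can bind transcripts of the other, so the signal may not be of GSTF3 alone. GSTU16 gave smaller rises, 0.64 ± 0.13 in IDL at day 3 and 0.67 ± 0.13 at day 6. In DP it gave 0.31 ± 0.13 at day 3, which missed the threshold, and rose by 0.35 ± 0.13 at day 6, a call lost in 4 alternatives (adjusted p up to 0.127). GSTU15, GSTU25 and GSTU28 passed in none of the 4 comparisons with light.

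The other called glutathione transferases gave small differences. GSTF4 gave -0.49 in DP at day 3, -0.55 in DP at day 6, -0.41 in IDL at day 3 and -0.51 in IDL at day 6, GSTU26 -0.36 in DP at day 3, -0.10 in DP at day 6, -0.30 in IDL at day 3 and -0.47 in IDL at day 6, and GSTU23 -0.27 in DP at day 3, -0.50 in DP at day 6, -0.17 in IDL at day 3 and -0.41 in IDL at day 6. GSTF4 passed in all 4 comparisons, GSTU26 in all but DP at day 6, and GSTU23 at day 6 alone in both treatments. GSTU23 at day 6 in both treatments and GSTF4 in DP at day 6 fell to below the lower quartile, so these falls are lower bounds. Each of these calls was lost when arrays were centred on the reference genes. The calls of GSTF4 and GSTU23 in DP at day 6 and of GSTU26 in IDL at day 6 were lost in that setting only. The others were also lost without single arrays. Among these, GSTU26 in IDL at day 3 was lost in 10 alternatives (adjusted p up to 0.468).

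**Figure D3:**
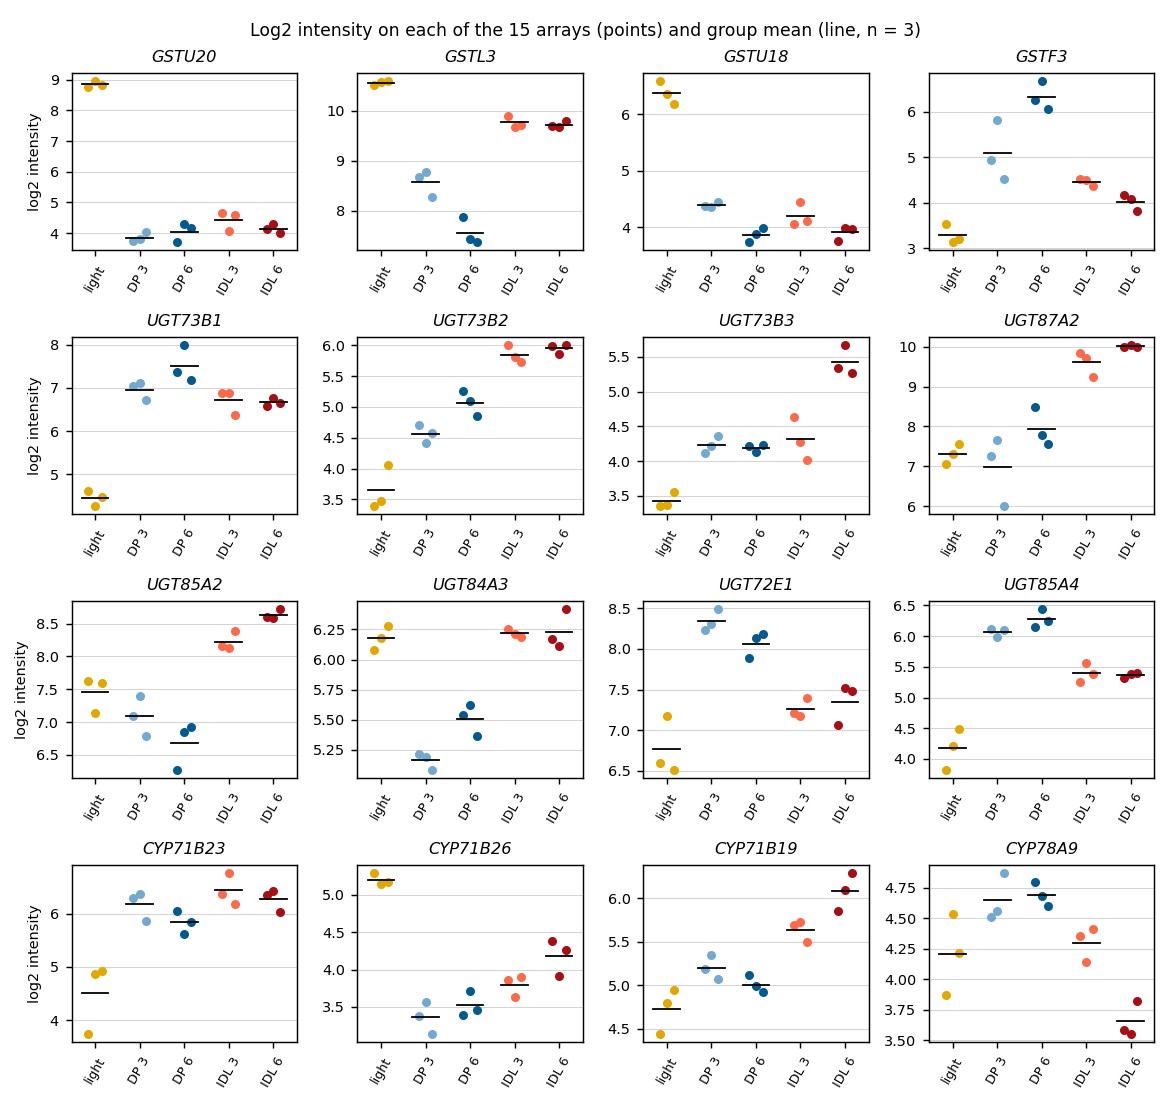
Log2 intensity (vertical axes, each with its own range) of 16 members on every array, 3 per group, with the group mean as a line. GSTU20 drops from a light mean of 8.85 to means of 3.85 to 4.43 in the dark, UGT73B1 rises in all dark groups, and UGT87A2 stands high in IDL alone.

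Glycosyltransferases of group UGT73B made the clearest rise. UGT73B1 (AT4G34138), UGT73B2 (AT4G34135) and UGT73B3 (AT4G34131) are neighbours on chromosome 4 that glucosylate flavonoids in vitro, and UGT73B3 and UGT73B5 have been tied to redox status in pathogen responses. UGT73B1 read 4.61, 4.26 and 4.47 in light, 7.04, 7.12 and 6.73 in DP leaves at day 3, 7.38, 7.99 and 7.18 in DP leaves at day 6, 6.88, 6.88 and 6.38 in IDL at day 3 and 6.57, 6.77 and 6.64 in IDL at day 6. All dark arrays were well above the light arrays, and DP at day 6 held the highest. UGT73B1 rose by 2.52 in DP at day 3, 3.07 in DP at day 6, 2.27 in IDL at day 3 and 2.22 in IDL at day 6 (DP at day 6, 8.4-fold, limma, adjusted p = 4.73e-12).

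UGT73B2 read 3.39, 3.48 and 4.06 in light, 4.71, 4.41 and 4.58 in DP leaves at day 3, 5.26, 5.09 and 4.85 in DP leaves at day 6, 6.00, 5.81 and 5.72 in IDL at day 3 and 5.98, 5.86 and 6.00 in IDL at day 6. Here the groups stood in steps without overlap, light lowest, then DP at day 3, DP at day 6 and the IDL arrays, whose days overlapped. UGT73B2 rose by 0.92 in DP at day 3, 1.42 in DP at day 6, 2.20 in IDL at day 3 and 2.30 in IDL at day 6. UGT73B3 read 3.35, 3.36 and 3.56 in light, 4.12, 4.22 and 4.36 in DP leaves at day 3, 4.21, 4.13 and 4.23 in DP leaves at day 6, 4.64, 4.28 and 4.02 in IDL at day 3 and 5.34, 5.67 and 5.27 in IDL at day 6. IDL at day 6 stood apart above all other groups, while DP at both days and IDL at day 3 overlapped. Its light mean lay below the lower quartile, so its rises of 0.81 in DP at day 3, 0.76 in DP at day 6, 0.89 in IDL at day 3 and 2.00 in IDL at day 6 are lower bounds. UGT73B5 (AT2G15480) read 3.83, 3.71 and 3.51 in light, 4.70, 3.80 and 4.09 in DP leaves at day 3, 4.92, 4.80 and 4.50 in DP leaves at day 6, 4.77, 5.60 and 4.81 in IDL at day 3 and 5.69, 5.66 and 5.49 in IDL at day 6. It rose by 1.06 ± 0.21 in DP at day 6, 1.38 ± 0.21 in IDL at day 3 and 1.93 ± 0.21 in IDL at day 6, and its DP day 3 value of 0.52 ± 0.21 missed the threshold (adjusted p = 0.0576). UGT73B4 stayed near or below the lower quartile, with differences of -0.05 in DP at day 3, -0.12 in DP at day 6, -0.09 in IDL at day 3 and 0.06 in IDL at day 6, none of which passed. The UGT73B copies are similar enough that cross-binding between their probes cannot be left aside.

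UGT87A2 (AT2G30140), known from mutants for an effect on flowering time, was high in individually darkened leaves. It read 7.07, 7.32 and 7.56 in light, 7.26, 7.66 and 6.00 in DP leaves at day 3, 8.49, 7.78 and 7.56 in DP leaves at day 6, 9.85, 9.73 and 9.24 in IDL at day 3 and 9.99, 10.04 and 9.99 in IDL at day 6. Every IDL array exceeded every other array, and DP arrays at day 3 spread on both sides of light, with replicate 3 lowest. It rose by 2.29 ± 0.29 in IDL at day 3 and by 2.69 ± 0.29 at day 6 (6.45-fold, adjusted p = 8.73e-08), whereas the DP values of -0.34 ± 0.29 and 0.63 ± 0.29 did not pass. UGT85A2 (AT1G22360) moved in opposite directions. It read 7.63, 7.14 and 7.59 in light, 7.09, 7.39 and 6.79 in DP leaves at day 3, 6.27, 6.85 and 6.92 in DP leaves at day 6, 8.16, 8.13 and 8.38 in IDL at day 3 and 8.60, 8.58 and 8.72 in IDL at day 6. IDL arrays were above light and DP arrays at day 6 below it, while DP at day 3 overlapped light. It rose by 0.77 ± 0.17 and 1.18 ± 0.17 in IDL and fell by 0.78 ± 0.17 in DP at day 6. This fall became -0.30 (adjusted p = 0.142) with centring on the reference genes.

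Others of the UGT85A group, whose members include the zeatin glucosyltransferase UGT85A1, rose in both treatments. UGT85A4 (AT1G78270) read 3.82, 4.21 and 4.49 in light, 6.12, 5.99 and 6.10 in DP leaves at day 3, 6.15, 6.44 and 6.25 in DP leaves at day 6, 5.25, 5.57 and 5.39 in IDL at day 3 and 5.32, 5.38 and 5.40 in IDL at day 6. Light, IDL and DP arrays formed separate levels without overlap, with DP on top. The rises were 1.90 in DP at day 3, 2.11 in DP at day 6, 1.23 in IDL at day 3 and 1.19 in IDL at day 6. UGT85A5 rose by 0.72 in DP at day 3, 0.70 in DP at day 6, 1.07 in IDL at day 3 and 1.33 in IDL at day 6. UGT85A3 passed in no comparison, and UGT85A7 in none with light.

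Members that act on phenylpropanoids did not move as a group. UGT72E1 (AT3G50740), which glucosylates coniferyl and sinapyl aldehydes, read 6.60, 7.18 and 6.51 in light, 8.23, 8.31 and 8.49 in DP leaves at day 3, 7.89, 8.13 and 8.18 in DP leaves at day 6, 7.21, 7.18 and 7.39 in IDL at day 3 and 7.06, 7.52 and 7.48 in IDL at day 6. DP arrays were highest, and IDL arrays overlapped or touched the light arrays, among which replicate 2 was highest. UGT72E1 rose by 1.58 ± 0.16 and 1.30 ± 0.16 in DP, and by 0.49 ± 0.16 and 0.59 ± 0.16 in IDL. The IDL day 3 call was lost without light replicate 1 (0.41), light replicate 3 (0.37) or IDL day 3 replicate 3 (0.43), with adjusted p up to 0.104. UGT72E2 and UGT72E3, which make the glucosides of the lignin alcohols, lay near or below the lower quartile and passed in no comparison with light. UGT84A3 (AT4G15490), which makes sinapate and other hydroxycinnamate glucose esters, read 6.08, 6.18 and 6.28 in light, 5.21, 5.19 and 5.08 in DP leaves at day 3, 5.54, 5.62 and 5.36 in DP leaves at day 6, 6.25, 6.21 and 6.19 in IDL at day 3 and 6.17, 6.11 and 6.42 in IDL at day 6. DP arrays were lowest, and IDL arrays overlapped light. UGT84A3 fell by 1.02 ± 0.11 and 0.67 ± 0.11 in DP and gave 0.04 and 0.05 in IDL, and the DP day 6 call was lost with centring on the reference genes (-0.20). UGT84A4 lay below the quartile and passed nowhere.

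The UGT78D group holds well-described flavonol glycosyltransferases. UGT78D1, the flavonol rhamnosyltransferase, fell by 0.65 ± 0.14 in DP at day 3, 0.64 ± 0.14 in DP leaves at day 6 and 0.49 ± 0.14 in IDL at day 3, to levels below the lower quartile, so these are lower bounds. It gave -0.25 in IDL at day 6. Centring on the reference genes left -0.17 (adjusted p = 0.315) in DP at day 6 and -0.33 (adjusted p = 0.0835) in IDL at day 3. UGT78D2, the 3-O-glucosyltransferase, gave -0.14 in DP at day 3, -0.06 in DP at day 6, -0.01 in IDL at day 3 and -0.23 in IDL at day 6, and UGT78D3, the arabinosyltransferase, gave -0.00 in DP at day 3, 0.12 in DP at day 6, -0.06 in IDL at day 3 and -0.09 in IDL at day 6, none of which passed. UGT73C6 (AT2G36790), which adds glucose at the 7-O position of flavonols, fell in all groups, by 1.22 in DP at day 3, 0.95 in DP at day 6, 0.96 in IDL at day 3 and 0.88 in IDL at day 6. UGT71C4 (AT1G07250), flavonoid-active in vitro as are the UGT73B enzymes whose genes rose, read 7.52, 6.90 and 7.19 in light, 5.79, 6.01 and 5.77 in DP leaves at day 3, 5.89, 5.78 and 5.74 in DP leaves at day 6, 6.58, 6.58 and 6.27 in IDL at day 3 and 5.92, 5.84 and 5.95 in IDL at day 6. All dark arrays were below light, and IDL at day 3 was the highest of the dark groups. UGT71C4 fell by 1.35 in DP at day 3, 1.41 in DP at day 6, 0.73 in IDL at day 3 and 1.30 in IDL at day 6.

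Among hormone-conjugating members, UGT71B6, UGT71B8 and UGT71C5 are described as glucosylating abscisic acid. UGT71B8 lay below the lower quartile in all groups. UGT71B6 rose by 0.52 in DP at day 3, 0.80 in DP at day 6, 0.99 in IDL at day 3 and 0.66 in IDL at day 6, and the DP day 3 call was lost without DP day 3 replicate 2 (0.40, adjusted p = 0.0832). UGT71C5 gave smaller values, 0.31 in DP at day 3, 0.24 in DP at day 6, 0.28 in IDL at day 3 and 0.45 in IDL at day 6, of which IDL at day 6 passed in every setting and DP at day 3 was called but lost in 7 alternatives (adjusted p up to 0.14). UGT74D1, an auxin glucosyltransferase, rose by 0.72 in DP at day 3, 0.65 in DP at day 6, 0.57 in IDL at day 3 and 0.51 in IDL at day 6, and the last call was lost without light replicate 1 (0.35, adjusted p = 0.0704). UGT84B1, which esterifies auxin, lay below the lower quartile in all groups. UGT76C1 and UGT76C2, which make cytokinin N-glucosides, gave differences between -0.25 and 0.25, and none passed. UGT74F1 and UGT76B1, which glucosylate salicylate, lay near or below the quartile and passed nowhere. UGT89B1, which acts on dihydroxybenzoates, rose in IDL, by 0.59 ± 0.12 at day 3 and 0.57 ± 0.12 at day 6, and gave 0.10 and 0.21 in DP.

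The remaining falls were those of single enzymes with different substrates. UGT74B1 (AT1G24100), which adds glucose to thiohydroximates in the core of glucosinolate synthesis, read 5.30, 5.46 and 5.30 in light, 3.91, 4.09 and 4.06 in DP leaves at day 3, 4.0, 4.16 and 4.25 in DP leaves at day 6, 4.63, 4.56 and 4.73 in IDL at day 3 and 4.82, 4.79 and 4.85 in IDL at day 6. The light arrays were highest, the IDL arrays intermediate and the DP arrays lowest, without overlap. UGT74B1 fell by 1.34 in DP at day 3, 1.22 in DP at day 6, 0.72 in IDL at day 3 and 0.54 in IDL at day 6, and centring on the reference genes left IDL at day 6 at -0.34 (adjusted p = 0.0832). The sterol glucosyltransferase UGT80B1 fell by 1.13 in DP at day 3, 1.24 in DP at day 6, 0.87 in IDL at day 3 and 0.89 in IDL at day 6. UGT76E11 (AT3G46670) read 5.65, 5.35 and 5.31 in light, 4.12, 3.52 and 3.67 in DP leaves at day 3, 3.99, 4.11 and 4.18 in DP leaves at day 6, 4.09, 3.92 and 4.24 in IDL at day 3 and 3.97, 4.27 and 4.48 in IDL at day 6, with every dark array below light, and fell by 1.67 in DP at day 3, 1.35 in DP at day 6, 1.36 in IDL at day 3 and 1.2 in IDL at day 6. UGT88A1 fell in DP alone, by 0.64 ± 0.12 at day 3 and 0.82 ± 0.12 at day 6, and gave 0.15 and 0.04 in IDL. With arrays centred on the reference genes its DP day 6 value was -0.34 (adjusted p = 0.0507). UGT72B3 fell by 0.64 ± 0.18 in IDL at day 3, a call lost in 1 alternative (adjusted p up to 0.0617), and by 1.10 ± 0.18 in IDL at day 6, and gave -0.11 and 0.11 in DP.

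Of the P450 genes 34.6% and 23.1% were called in DP at days 3 and 6, and 23.1% and 38.5% in IDL. Of all genes 35.2% and 39.9% were called in DP and 39.6% and 39.7% in IDL. CYP71B23 (AT3G26210) read 3.74, 4.87 and 4.93 in light, 6.30, 6.38 and 5.86 in DP leaves at day 3, 6.06, 5.62 and 5.85 in DP leaves at day 6, 6.37, 6.77 and 6.18 in IDL at day 3 and 6.36, 6.43 and 6.04 in IDL at day 6. All dark arrays exceeded light, where replicate 1 was more than 1 unit below the other light arrays. CYP71B23 rose by 1.67 in DP at day 3, 1.33 in DP at day 6, 1.93 in IDL at day 3 and 1.76 in IDL at day 6. Over all alternatives the DP day 6 value ranged from 0.94 to 1.81 and passed in each. CYP71B19 (AT3G26170) read 4.44, 4.80 and 4.95 in light, 5.19, 5.35 and 5.07 in DP leaves at day 3, 5.12, 4.99 and 4.92 in DP leaves at day 6, 5.69, 5.73 and 5.50 in IDL at day 3 and 5.85, 6.09 and 6.29 in IDL at day 6. The IDL arrays were highest, with day 6 above day 3 and no overlap. CYP71B19 rose by 0.91 ± 0.14 and 1.35 ± 0.14 in IDL, and CYP71B20 by 0.76 ± 0.15 and 0.75 ± 0.15, while CYP71B20 gave 0.13 and 0.11 in DP. In DP CYP71B19 rose by 0.47 ± 0.14 at day 3, a call lost in 2 alternatives (adjusted p up to 0.0819), and gave 0.28 at day 6, which did not pass. CYP71B19 and CYP71B20 lie next to each other on chromosome 3 and are close copies, so their probes may share signal.

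CYP71B26 (AT3G26290) was the P450 gene with the largest fall. It read 5.29, 5.14 and 5.17 in light, 3.38, 3.57 and 3.14 in DP leaves at day 3, 3.39, 3.72 and 3.46 in DP leaves at day 6, 3.86, 3.63 and 3.90 in IDL at day 3 and 4.38, 3.91 and 4.26 in IDL at day 6. Light was highest, all dark arrays were lower, and IDL at day 6 was the highest dark group. CYP71B26 fell by 1.84 in DP at day 3, 1.68 in DP at day 6, 1.40 in IDL at day 3 and 1.01 in IDL at day 6, the DP day 3 value being a lower bound. CYP71B35 (AT3G26310) fell by 1.26 in DP at day 3, 1.38 in DP at day 6, 0.78 in IDL at day 3 and 0.74 in IDL at day 6. CYP71B28 read 5.30, 5.63 and 5.52 in light, 4.98, 4.90 and 4.84 in DP leaves at day 3, 4.51, 4.65 and 4.48 in DP leaves at day 6, 5.63, 5.19 and 5.28 in IDL at day 3 and 5.58, 5.49 and 5.38 in IDL at day 6. It fell by 0.58 ± 0.13 and 0.94 ± 0.13 in DP, where no array overlapped light, and gave -0.12 and -0.00 in IDL. Centring on the reference genes left its DP day 3 value at -0.34 (adjusted p = 0.0701). CYP71B29 fell by 0.86 ± 0.14 in DP at day 6 and by 1.08 ± 0.14 in IDL at day 6. Its day 3 falls were 0.36 ± 0.14 in DP, a call lost in 17 alternatives (adjusted p up to 0.546), and 0.41 ± 0.14 in IDL, lost in 5 alternatives (adjusted p up to 0.236).

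P450 genes with a described substrate or role differed in the comparisons they passed. CYP71B6, which converts indole acetonitrile, gave 0.13, -0.10 and 0.20 and rose by 0.49 ± 0.11 in IDL at day 6. CYP79A2, which makes phenylacetaldoxime for benzylglucosinolate, rose by 0.34 ± 0.13 in DP at day 3, a call lost in 6 alternatives (adjusted p up to 0.166), and CYP718 by 0.34 ± 0.11 there, lost in 4 alternatives (adjusted p up to 0.102). Both rose from light levels below the lower quartile and passed in no other comparison, and CYP79C2 passed in none. CYP84A4, of arabidopyrone synthesis, gave 0.28 in DP at day 3, 0.29 in DP at day 6, 0.12 in IDL at day 3 and 0.06 in IDL at day 6, none of which passed. CYP78A9, a regulator of fruit and seed size, read 3.87, 4.53 and 4.21 in light, 4.51, 4.56 and 4.87 in DP leaves at day 3, 4.80, 4.68 and 4.60 in DP leaves at day 6, 4.35, 4.14 and 4.41 in IDL at day 3 and 3.58, 3.55 and 3.82 in IDL at day 6. DP arrays at day 6 exceeded all light arrays and IDL arrays at day 6 lay below all of them. CYP78A9 rose by 0.44 ± 0.15 in DP at day 3, a call lost in 4 alternatives (adjusted p up to 0.166), and by 0.48 ± 0.15 in DP at day 6, a call lost without light replicate 1 (0.32, adjusted p = 0.0947). It fell by 0.55 ± 0.15 in IDL at day 6, and this became -0.36 (adjusted p = 0.0909) with centring on the reference genes.

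IDL was set directly against DP to ask what differs between a darkened leaf on a lit plant and the same organ on a dark plant. At day 3, 17 members were higher in IDL (background 8.74% of all genes) and 3 lower (background 7.99%), with 16.7% of all genes called in either direction. The called share of the 90 was 22.2%. The higher count was 11 without IDL day 3 replicate 1. At day 6, 19 members were higher (background 15.1%) and 10 lower (background 13.9%), with 29.1% of all genes called in either direction and 32.2% of the members. With centring on the reference genes the median of all genes was -0.06 at day 3 and -0.31 at day 6. The splits were then 10 higher and 4 lower at day 3 and 11 higher and 33 lower at day 6, without a background share under that centring. The median member stood at 0.05 and 0.03, and the median of all genes at 0.02 and -0.03.

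The comparisons at day 3 and day 6 share no array in their means. The fit takes the spread of each gene from all 15 arrays, however, so the calls of both days are not independent. Of the members higher in IDL, 14 were so on both days, which is 82.4% of those of day 3 and 73.7% of those of day 6. Over all genes tested these shares were 78.7% and 45.4%. All 3 lower members of day 3 were lower at day 6 too, 30.0% of those of day 6: UGT72E1, UGT85A4 and UGT72B3. The shares over all genes were 74.3% and 42.7%. UGT87A2 differed by 2.64 ± 0.29 at day 3 and 2.06 ± 0.29 at day 6, and UGT85A2 by 1.14 ± 0.17 and 1.96 ± 0.17. UGT73B2 differed by 1.27 ± 0.15 and 0.88 ± 0.15, and UGT84A3 by 1.06 ± 0.11 and 0.72 ± 0.11. UGT73B5 differed by 0.86 ± 0.21 and 0.88 ± 0.21, and UGT88A1 by 0.80 ± 0.12 and 0.85 ± 0.12. UGT72E1 gave -1.09 ± 0.16 and -0.71 ± 0.16, and UGT85A4 -0.66 ± 0.14 and -0.91 ± 0.14. UGT72B3 gave -0.53 ± 0.18 at day 3, a call lost in 12 alternatives (adjusted p up to 0.184), and -1.21 ± 0.18 at day 6.

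**Figure D4:**
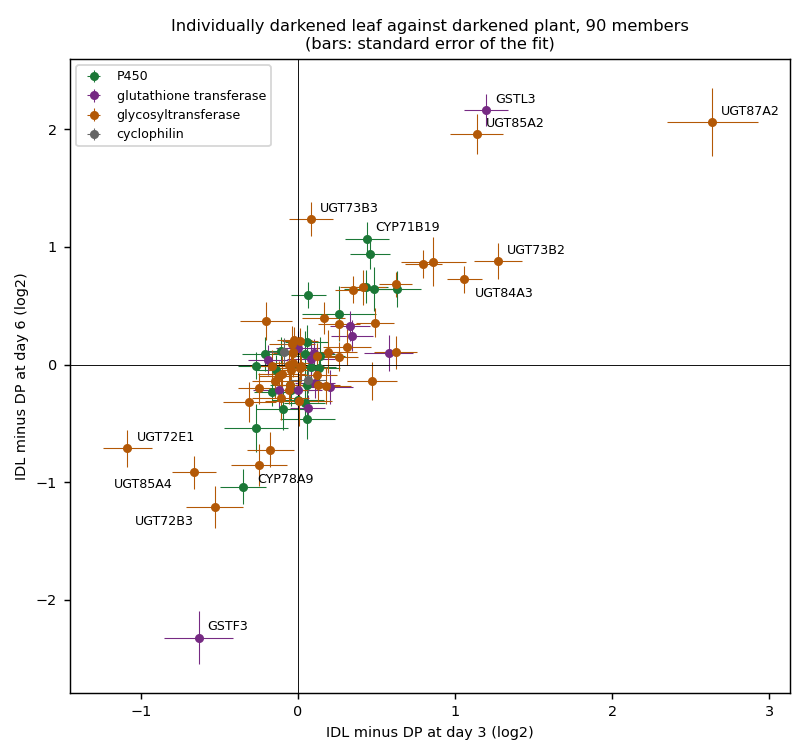
Log2 difference between IDL and DP at day 3 (horizontal axis) and day 6 (vertical axis) for the 90 members, coloured by family, with bars for the standard error of the fit. UGT87A2, GSTL3 and UGT85A2 lie far to the upper right, UGT73B3 is raised on the day 6 axis alone, and GSTF3 is lowest at -2.32 on that axis.

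Of the P450 genes, 4 were higher in IDL on both days. CYP71B19 differed by 0.44 ± 0.14 at day 3, a call lost in 5 alternatives (adjusted p up to 0.188), and 1.07 ± 0.14 at day 6. CYP71B28 differed by 0.46 ± 0.13 at day 3, lost in 3 alternatives (adjusted p up to 0.123), and 0.94 ± 0.13 at day 6. CYP71B26, which fell less in IDL, differed by 0.43 ± 0.14 at day 3, lost in 5 alternatives (adjusted p up to 0.192), and 0.66 ± 0.14 at day 6, lost in 1 alternative (adjusted p up to 0.0509). CYP71B20 was higher by 0.63 ± 0.15 at day 3 and 0.64 ± 0.15 at day 6, where centring on the reference genes left 0.36 (adjusted p = 0.0782). UGT74B1 differed by 0.62 ± 0.11 and 0.68 ± 0.11. UGT71C4 was called at day 3, at 0.62 ± 0.14, and gave 0.10 at day 6.

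Other members passed at day 6 and not at day 3. GSTF3 was lower in IDL at day 6, at -2.32 ± 0.22 (adjusted p = 3.89e-08, 4.99-fold), with -0.63 ± 0.22 at day 3. UGT73B3 was higher in IDL by 1.24 ± 0.14, against 0.08 at day 3. CYP78A9 was lower in IDL, at -1.04 ± 0.15, against -0.35 at day 3, and UGT71C3 at -0.72 ± 0.15, against -0.18. UGT73B1, which rose in both treatments, was lower in IDL at day 6, at -0.86 ± 0.18, against -0.25. CYP71B35 was higher by 0.65 ± 0.19, a call lost in 2 alternatives (adjusted p up to 0.126), and CYP71B6 by 0.59 ± 0.11, not called with centring on the reference genes (0.31). Their day 3 values were 0.48 and 0.07.

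Few members changed from day 3 to day 6. In DP 1 rose and 3 fell (2.03% of all genes rose and 2.53% fell, 4.56% in either direction). In IDL 1 rose and 3 fell (4.82% of all genes rose and 3.83% fell, 8.64% in either direction). Counts under other scalings are given without a share of all genes. In DP, quantile normalization gave 3 higher and 3 lower, and centring on the reference genes 10 higher and 1 lower. In IDL, centring on the array median gave 2 higher and 3 lower. In DP, GSTF3 rose by 1.25 ± 0.22 and GSTL3 fell by 1.01 ± 0.14, both without overlap between days. GSTU18 fell by 0.52 ± 0.13, a call lost with centring on the reference genes (-0.28) and without DP day 3 replicate 1 (-0.53) or 3 (-0.50) or DP day 6 replicate 1 (-0.46) or 2 (-0.53). CYP71B29 fell by 0.50 ± 0.14, a call lost in 8 alternatives (adjusted p up to 0.27). In IDL, UGT73B3 rose by 1.11 ± 0.14 and CYP78A9 fell by 0.65 ± 0.15, CYP71B29 by 0.67 ± 0.14 and UGT71C4 by 0.58 ± 0.14, the last call lost in 2 alternatives (adjusted p up to 0.0531).

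Such small counts turned on single arrays. In DP the count of rises was 2 without DP day 3 replicate 1 or 2 or light replicate 1 or 3, and 3 without DP day 6 replicate 3. The count of falls was 1 without DP day 3 replicate 3 or DP day 6 replicate 1 or 2. In IDL the count of rises was 2 without IDL day 3 replicate 2, IDL day 6 replicate 1 or 2, or light replicate 1 or 3. The count of falls there was 5 without IDL day 3 replicate 1.

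The interaction asks whether the change from day 3 to day 6 differed between treatments, taken as the change in IDL minus that in DP. It was called for 3 members, 2 above and 1 below 0. Of all genes 3.13% were called above and 2.23% below 0, 5.36% in all. GSTF3 gave -1.69 ± 0.31 (limma, adjusted p = 0.00186), UGT73B3 1.15 ± 0.20 (adjusted p = 0.000966) and GSTL3 0.97 ± 0.20 (adjusted p = 0.0043). Over time GSTF3 and GSTL3 were called in DP and UGT73B3 in IDL. The split was 2 higher and 1 lower. With centring on the reference genes it was 2 higher and 2 lower, without a share of all genes. The higher count was 4 without light replicate 1 or IDL day 3 replicate 3, and the lower count 2 without light replicate 1 or 2, DP day 3 replicate 3, DP day 6 replicate 1, IDL day 3 replicate 3 or IDL day 6 replicate 3.

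Many members lie in runs of related genes, which share sequence. Runs were taken as at least 3 members of a family with at most 3 other genes between neighbours, and 37 members fell into 9 runs. In the tau-class run on chromosome 1, GSTU20 fell by 4.99 in DP at day 3 while GSTU21 and GSTU22 gave 0.13 and -0.02 near the lower quartile and GSTU23 gave -0.27. GSTU23 was called lower at day 6 in both treatments, calls lost with centring on the reference genes. In the UGT71B run on chromosome 3, UGT71B1 fell by 1.00 in DP at day 3, 0.76 in DP at day 6, 0.82 in IDL at day 3 and 0.94 in IDL at day 6 and UGT71B6 rose in the same groups. The UGT71B1 call in DP at day 6 was lost with centring on the reference genes (-0.28). UGT73B3, UGT73B2 and UGT73B1 on chromosome 4 formed a run in which every member rose in all 4 comparisons with light.

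The largest run, from CYP71B16 to CYP71B24 on chromosome 3, held CYP71B23, CYP71B19 and CYP71B20, and its 4 other members passed in no comparison with light. The adjoining run from CYP71B25 to CYP71B37 held CYP71B26, CYP71B35 and CYP71B36, of which CYP71B36 fell by 0.58 ± 0.17 in IDL at day 6 and passed in no other comparison with light. That call was lost without IDL day 6 replicate 1 (-0.46) and with centring on the reference genes (-0.38). No member of the run rose against light. In the run from CYP71B5 to CYP71B32, CYP71B5 alone passed, at -0.45 ± 0.13 in IDL at day 6. Without light replicate 3 it was -0.35 and without IDL day 6 replicate 2 it was -0.35, and with centring on the reference genes -0.26 (adjusted p = 0.221), none of them called. Since probes of close copies can bind each other's transcripts, values within a run are uncertain as to which copy they measure.

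**Figure D5:**
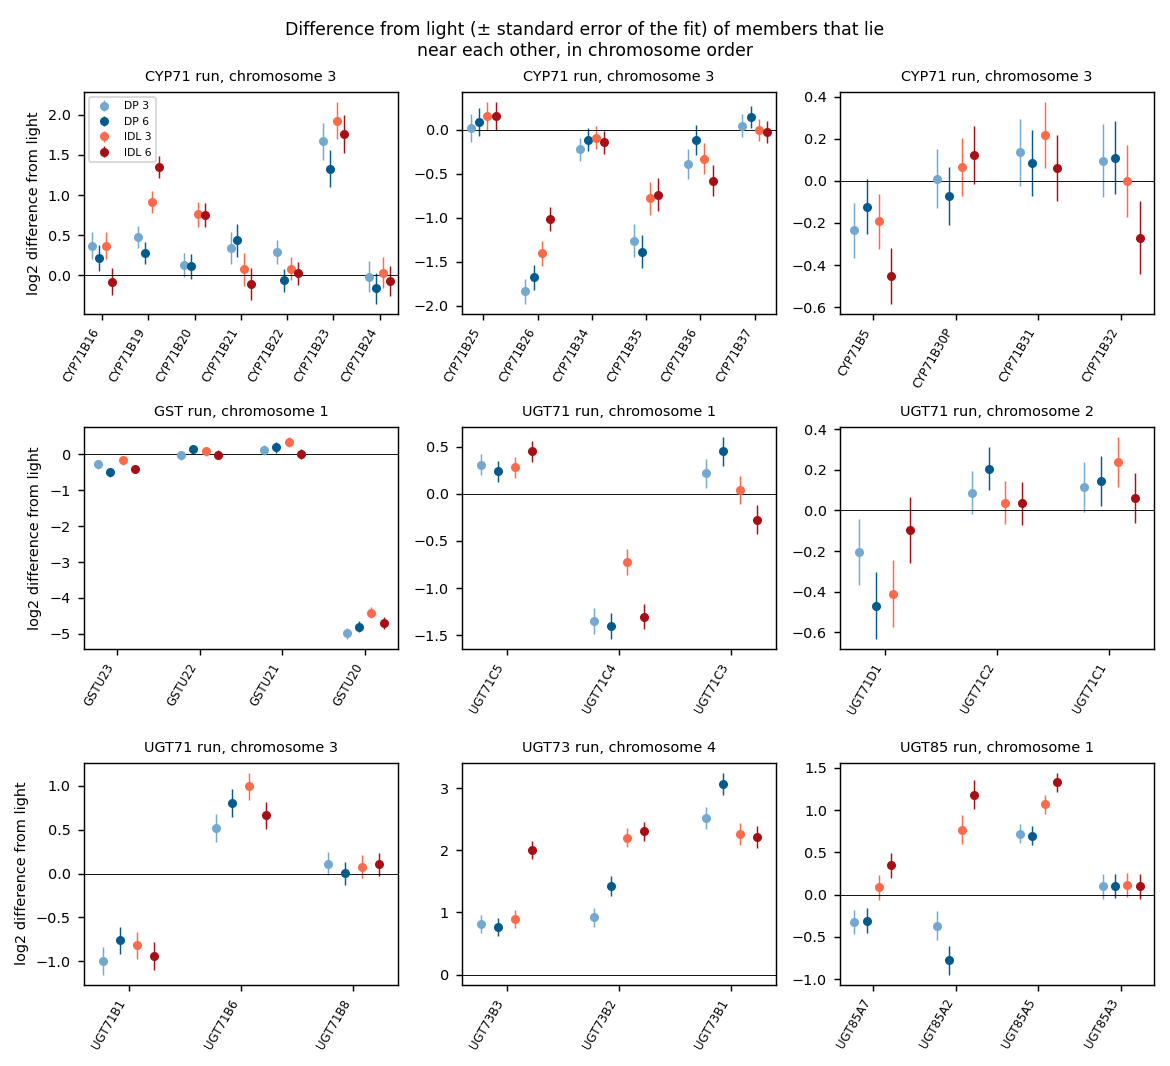
Log2 difference from light (vertical axes, each with its own range) for members of the 9 runs in chromosome order, for DP and IDL at days 3 and 6, with bars for the standard error of the fit. GSTU20 stands near -4.80, far below its 3 neighbours, of which GSTU23 was called lower at day 6 in both treatments. All 3 UGT73B members lie above 0.

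Other genes of the pathways served by these enzymes were thinly covered. Of 48 listed glucosinolate genes 6 were measured, and GSTU20 and UGT74B1 are among those. In DP 5 of the 6 fell at both days, and in IDL 4 fell and 1 rose at both days. GSTU20 and UGT74B1, described above, are among the falls of all 4 groups. Of all genes 18.0% fell in DP at day 3, 19.6% in DP at day 6, 18.8% in IDL at day 3 and 19.1% in IDL at day 6. UGT74C1 (AT2G31790), a further glucosinolate glucosyltransferase, which the RefSeq table lists by its locus code alone, gave -2.34, -2.07, -1.83 and -1.87 in DP at days 3 and 6 and IDL at days 3 and 6. The glucosinolate transporter GTR1 gave -1.84, -1.96, -1.87 and -1.69 in that order. GTR2 gave -1.15 and -0.92 in DP but 1.16 and 0.45 in IDL, each called.

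Of 20 listed glutathione genes 2 were measured, both glutathione reductases. The cytosolic enzyme GR1 fell in DP, at -1.64 and -1.91, and gave -0.16 and -0.23 in IDL, which did not pass. The organellar enzyme GR fell in all groups, at -1.72, -1.81, -1.65 and -1.48. Of 25 phenylpropanoid genes 7 were measured, of which 1 rose and 4 fell in DP at either day and 1 rose and 3 fell in IDL. HCT, CCR2 and REF1 were lower in all 4 groups, between -1.89 and -0.78. Of 26 flavonoid genes 8 were measured, and at most 2 fell and 1 rose in any comparison with light. Beside these lists, 17.2% to 20.8% of all genes rose and 18.0% to 19.6% fell in the 4 comparisons with light. Of 11 genes listed as electron donors of P450 enzymes only ATR3 was measured, and it rose by 0.50, 0.77, 0.60 and 0.59. Whether ATR3 serves P450 enzymes in these leaves was not tested. Of 16 genes of the response to xenobiotics 2 were measured, and the transporter DTX3 rose in IDL, by 1.45 and 2.24, from a light level below the lower quartile, with 0.33 and 0.41 in DP, which did not pass. No gene of the camalexin, abscisic acid and jasmonate, carotenoid or cutin lists was measured.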

How the data were processed

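For each probe set and array the authors deposited an intensity on a linear scale. The R package oligo is named for these values, per the submitters' processing notes, but how it normalized, corrected for background and summarised probes, and in which version, is not given in the sources used here. Deposited intensity medians ran from 18.31 to 19.56 over the arrays. Log2 was taken here, with no floor and no filter, and no background values or detection calls were used. The annotation pairs 16179 of 26676 probe sets with exactly 1 gene, 588 with several and 9909 with none. A gene with more than 1 probe set was represented by the brightest, which gave 16175 genes. Names and gene order came from the RefSeq table (assembly TAIR10.1), in which 16067 probe sets matched by locus code.

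One limma 3.58.1 model (R 4.3.3, lmFit and eBayes, a mean per group, prior of 10.52 degrees of freedom) held all 15 arrays and gave 9 comparisons. Its steps were tested on simulated data. The members and gene lists were chosen with earlier results of these data known. Named members are, in each family and main comparison, up to 4 largest rises and 4 largest falls without overlap of arrays, up to 2 each way for changes over time and the interaction, and the highest and lowest mean level, which is not printed because levels of different probe sets are not comparable. Members outside this rule are named for their role or place and were chosen after their values were seen. Of the other pathway lists up to 3 called genes each way were named.

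Other settings were centring on array medians or on reference genes, quantile normalization, leaving out dim genes (the lowest 25% by mean), all probe sets, a trend with a robust prior, fitting compared arrays alone, a replicate block, members also by synonym, and leaving out each array in turn. Leaving out the 2 cyclophilins was chosen after seeing the data. Deviations of same-numbered arrays correlated at -0.0777 to 0.0937 (median 0.016), with 0 of 30 pairs over 0.1. The 60 other pairs gave -0.103 to 0.0921 (median -0.00982). Same-numbered arrays thus showed no strong shared deviation, which cannot tell whether replicates were grown or harvested as sets. The number of arrays limits the precision.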

Additional observations from a re-analysis of the deposited data

Results flagged for a closer look

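UGT85A2 was called in opposite directions against light, higher in IDL at day 6 and lower in DP at day 6, and the direct difference between them was 1.96 (limma, adjusted p = 1.03e-08). The UGT85A2 fall in DP was lost with centring on the reference genes (-0.30, adjusted p = 0.142). CYP78A9 was also called in opposite directions against light at day 6, higher in DP and lower in IDL. Its direct difference was -1.04 (adjusted p = 9.47e-06). The CYP78A9 rise in DP was lost without light replicate 1 (0.32, adjusted p = 0.0947). Its fall in IDL was lost with centring on the reference genes (-0.36, adjusted p = 0.0909).

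The change from day 3 to day 6 differed between treatments for 3 members by the interaction term. GSTF3 gave -1.69, with 1.25 in DP and -0.44 in IDL. UGT73B3 gave 1.15, with -0.05 in DP and 1.11 in IDL. GSTL3 gave 0.97, with -1.01 in DP and -0.05 in IDL.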

How the results depend on the processing

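Counts of members in this section are given without the share of all genes called under the same setting. Centring on the 2 reference genes gave 31 higher in DP at day 3 and, in DP at day 6, 60 higher and 12 lower. In IDL at day 6 it gave 13 lower. For IDL against DP it gave 10 higher at day 3, and 11 higher and 33 lower at day 6. From day 3 to day 6 in DP it gave 10 higher and 1 lower, and for the interaction 2 lower. Quantile normalization gave 3 higher over time in DP. Centring on the array median gave 2 higher over time in IDL, as did leaving out the dim genes, which also gave 4 higher and 2 lower in the interaction. A fit of only the arrays compared gave 2 higher and 5 lower over time in IDL and 4 higher and 2 lower in the interaction. All probe sets, and a trend with a robust prior, each gave 4 higher in the interaction. The replicate number as a block gave 2 higher over time in DP. This count is given only here, since same-numbered arrays showed no strong shared deviation. Leaving out 1 array at a time gave 11 to 16 higher and 18 to 21 lower for DP at day 3 against light, 13 to 16 higher and 20 to 22 lower for DP at day 6 against light, 17 to 20 higher and 14 to 18 lower for IDL at day 3 against light, 19 to 22 higher and 17 to 21 lower for IDL at day 6 against light, 11 to 18 higher and 2 to 3 lower for IDL against DP at day 3, 17 to 20 higher and 7 to 11 lower for IDL against DP at day 6, 1 to 3 higher and 1 to 3 lower for the change over time in DP, 1 to 2 higher and 2 to 5 lower for the change over time in IDL and 2 to 4 higher and 1 to 2 lower for the interaction. Among 206 single calls tested, 61 were lost in at least 1 alternative, and 1 turned: UGT71D1 in DP at day 6 went from -0.47 to 0.007 with centring on the reference genes (adjusted p = 0.971). The cause of these moves was not tested. Small changes of dim members are limited by signal over background, which the values used here do not give.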

Other observations

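Of the tested genes, 6 carry a name of these families as a synonym only and were left out of the members. They were looked at after the members' values had been seen. SGT (AT3G07020), which RefSeq also lists as UGT80A2, is a sterol glucosyltransferase like UGT80B1. SGT rose by 0.67 in DP at day 3, 0.74 in DP at day 6, 1.28 in IDL at day 3 and 0.97 in IDL at day 6, whereas UGT80B1 fell in the same 4 comparisons. GT72B1 (AT4G01070), also listed as UGT72B1, acts on chlorinated phenols and monolignols. It fell by 0.97, 1.19, 0.49 and 0.33 in that order, and so fell in DP where UGT72B3 did not pass. The cyclophilin SQN (AT2G15790) rose by 0.60 in IDL at day 6 and passed in no other comparison with light. The remaining 3 passed in none of them.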
